A study of Mus musculus with 22 samples.

Results

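The genes of the constitutive proteasome were followed across 4 kinds of sorted mouse bone marrow cells. Members were all genes whose symbol is Psma, Psmb, Psmc or Psmd followed by a number, other than Psmb8, Psmb9 and Psmb10, on probe sets annotated to 1 symbol. This gave 36 genes of 18194 named by a single symbol, on 74 of 45037 probe sets. They comprise 14 core genes (7 of the alpha ring and 7 of the beta ring), 17 regulatory particle genes (6 base ATPases, 3 other base subunits and 8 lid subunits), 3 assembly chaperones (Psmd5, Psmd9 and Psmd10), the testis form Psma8 and the thymus form Psmb11. For each gene the probe set with the highest mean signal stands for it, and all 36 such probe sets passed the filter on low values, Psma8 by exceeding a signal of 100 on only 2 of 11 arrays.

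Marrow cells were stained for CD45, a surface protein of nearly all white blood cells, and Sca1, a surface protein of stem cells and of some lymphoid and myeloid cells, and were separated by sorting. The signs in a group's name give CD45 first and Sca1 second. The groups were OGCsort +/+ (sorts 1, 5 and 6), CPGSE +/+ (sorts 4 and 6), OGCsort +/- (sorts 1, 7 and 9) and OGCsort -/- (sorts 4, 5 and 8). OGCsort and CPGSE are label names for 2 sets of sorts: purity was estimated at 90% for OGCsort and at 95 to 98% for CPGSE, and the CPGSE label also calls its source haematopoietic stem cells. No genotype, treatment or age is given for any group. Each of the 11 RNA samples was hybridised to both chips of the Affymetrix MOE430 pair, 22 arrays in all. Whether the sorts used separate animals is not stated, so p-values here speak to variation among the samples at hand, which may be technical.

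The proteasome degrades proteins that carry ubiquitin chains. Its barrel-shaped core is built of outer alpha rings, which gate the entry, and inner beta rings, in which Psmb5, Psmb6 and Psmb7 carry the proteolytic sites. The regulatory particle caps the core: ATPases of its base unfold the substrate, other base subunits bind ubiquitin chains and shuttle factors, and the lid removes the chains. Psmd5, Psmd9 and Psmd10 are chaperones that help the base ATPases assemble and are absent from the finished complex. When proteasomes are short of capacity, the factor Nfe2l1 raises transcription of many subunits through antioxidant response elements. Maturing red cells keep degrading proteins with ubiquitin and proteasomes while they lose their organelles.

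The sorted groups differed in many markers. Ptprc, which encodes CD45, had a signal of 8780 to 12026 in OGCsort +/+, 11764 to 14319 in CPGSE +/+ and 7213 to 8516 in OGCsort +/- samples, against 149 to 1142 in OGCsort -/- samples. Ly6a, which encodes Sca1, was not analysed here, since no probe set names it alone. The summed signal of 7 erythroid markers (Hemgn, Slc4a1, Rhd, Rhag, Alas2, Epb42 and Klf1, of 8 listed) was 2027 to 5267, 2490 to 7540 and 1234 to 2794 in the same 3 groups, against 186862 to 291695 in OGCsort -/-. The summed signal of 5 of 6 genes of dividing cells was 6947 to 8971, 7341 to 14033 and 9543 to 13559, against 40163 to 64303 in OGCsort -/-. The summed signal of 6 monocyte and dendritic cell markers was 124563 to 153789, 145034 to 158949 and 40726 to 75362, against 1906 to 6858 in OGCsort -/-, and that of 4 plasma cell markers was 22347 to 32331, 39262 to 42684 and 8931 to 15805, against 2086 to 8219. The 6 T and NK cell markers summed to 8085 to 9243, 7927 to 9983 and 4074 to 6901, against 3210 to 3747, and 5 of 6 B cell markers to 22270 to 22814, 16865 to 19063 and 14774 to 36944, against 1722 to 17154. Cd8a made up most of the T and NK sum in OGCsort -/- samples, with 2676 to 3127 there against 1741 to 2824 in the other samples. Klrd1 had 40.7 to 96.5 against 848 to 2250. Cd4 was low both in OGCsort +/- (32.4 to 58.8) and in OGCsort -/- (34.2 to 62.1) samples. Of the B cell markers, Ms4a1 had 271 to 566 in OGCsort -/- samples, against 2978 to 8765 in the others. Pax5 (891 to 1765, against 881 to 1879) and Vpreb1 (134 to 9063, against 1871 to 8578) overlapped, however. Siglech, in the monocyte and dendritic list, had 752 to 856 in OGCsort -/- and 778 to 1378 in OGCsort +/- samples. All 8 neutrophil markers summed to 4268 to 27392 in OGCsort +/+, 10571 to 113795 in CPGSE +/+, 86260 to 374643 in OGCsort +/- and 1869 to 18541 in OGCsort -/- samples. The ratio of 3′ to 5′ Gapdh control signal on chip A, a measure of RNA degradation, ran from 9.14 to 24.8 in OGCsort +/+, 14.4 to 15 in CPGSE +/+, 13.8 to 19.6 in OGCsort +/- and 8.17 to 11.8 in OGCsort -/- samples. On chip B the OGCsort -/- ratios (11.6 to 14.8) lay within the range of the other samples (8.57 to 22), and so did the Actb ratios on chip A (5.91 to 8.33 in OGCsort -/-, within 4.06 to 12.9 in the others). The part of these markers and ratios in the results below was not tested. In bulk samples, fewer cells of a type and less RNA per cell cannot be told apart.

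The promoters of the 6 genes called against OGCsort -/- in both CD45+ OGCsort groups, together with that of Psmb5, a catalytic subunit with an antioxidant response element core near its start, are shown for the 100 bases before the transcription start, 5′ to 3′ on the gene's strand, from the RefSeq promoter table (GRCm38.p6). Capitals mark TGACNNNGC, the core of the antioxidant response element, and CCAAT, the box bound by NF-Y, on either strand (read as ATTGG on the other strand).
Psmd5, chr2:34870963-34871062, minus strand: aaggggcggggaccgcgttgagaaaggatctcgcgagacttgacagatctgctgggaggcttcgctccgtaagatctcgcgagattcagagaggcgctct
Psmd9, chr5:123228090-123228189, plus strand: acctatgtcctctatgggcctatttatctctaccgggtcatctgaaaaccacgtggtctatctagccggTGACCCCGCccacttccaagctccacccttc
Psmd1, chr1:86064519-86064618, plus strand: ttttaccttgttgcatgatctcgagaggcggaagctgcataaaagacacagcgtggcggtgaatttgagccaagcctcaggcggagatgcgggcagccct
Psmd4, chr3:95042615-95042714, minus strand: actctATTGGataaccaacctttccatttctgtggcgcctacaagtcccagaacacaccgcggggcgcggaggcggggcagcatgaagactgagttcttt
Psmc6, chr14:45329724-45329823, plus strand: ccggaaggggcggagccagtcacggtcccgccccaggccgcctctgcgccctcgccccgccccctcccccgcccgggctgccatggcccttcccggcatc
Psmb3, chr11:97703334-97703433, plus strand: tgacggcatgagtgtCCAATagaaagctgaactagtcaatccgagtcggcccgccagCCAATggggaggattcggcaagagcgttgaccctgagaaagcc
Psmb5, chr14:54617996-54618095, minus strand: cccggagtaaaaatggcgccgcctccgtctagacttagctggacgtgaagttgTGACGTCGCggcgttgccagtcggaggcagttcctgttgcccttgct

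In these stretches the antioxidant core begins 31 bases before the start in Psmd9 and 47 bases before it in Psmb5. CCAAT boxes begin 85 and 43 bases before the start in Psmb3 and, on the opposite strand, 95 bases before it in Psmd4. The stretches of Psmd5, Psmd1 and Psmc6 hold neither motif. Over the whole window of 250 bases before to 50 after the start, 29 of the 36 members had a promoter in the table. TGACNNNGC was found in 5 of these 29 genes (17.2%), Psmb5, Psmb6, Psmc6, Psmd9 and Psmd12, against 14% of all 27025 genes in the table. CCAAT was found in 12 of 29 (41.4%), against 41.1% of all genes, so both shares are near those over all genes. By class, CCAAT was in 6 of 11 core genes and 4 of 14 regulatory particle genes. GATA sites (the letters GATA preceded by A or T and followed by A or G, on either strand), a search added after the values were seen, were in 4 of 29 members (13.8%), against 33% of all genes; of the 3 chaperones Psmd9 held such sites, and of the 7 members called lower in OGCsort +/+ than in OGCsort -/- cells 2 did (28.6%).

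The median member varied less than the median gene, both among groups and among the samples within a group. The range of a member's 4 group means had a median of 0.687 on the log2(signal + 32) scale, against 1.06 over 16997 genes, and the median standard deviation within groups was 0.281, against 0.517. The members were also brighter, with a median mean signal of 1657 against 448, so these medians are not matched for signal. The widest range belonged to Psmd5 (2.29). The values of every member in each sample are shown in the heat map.

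**Figure D1:**
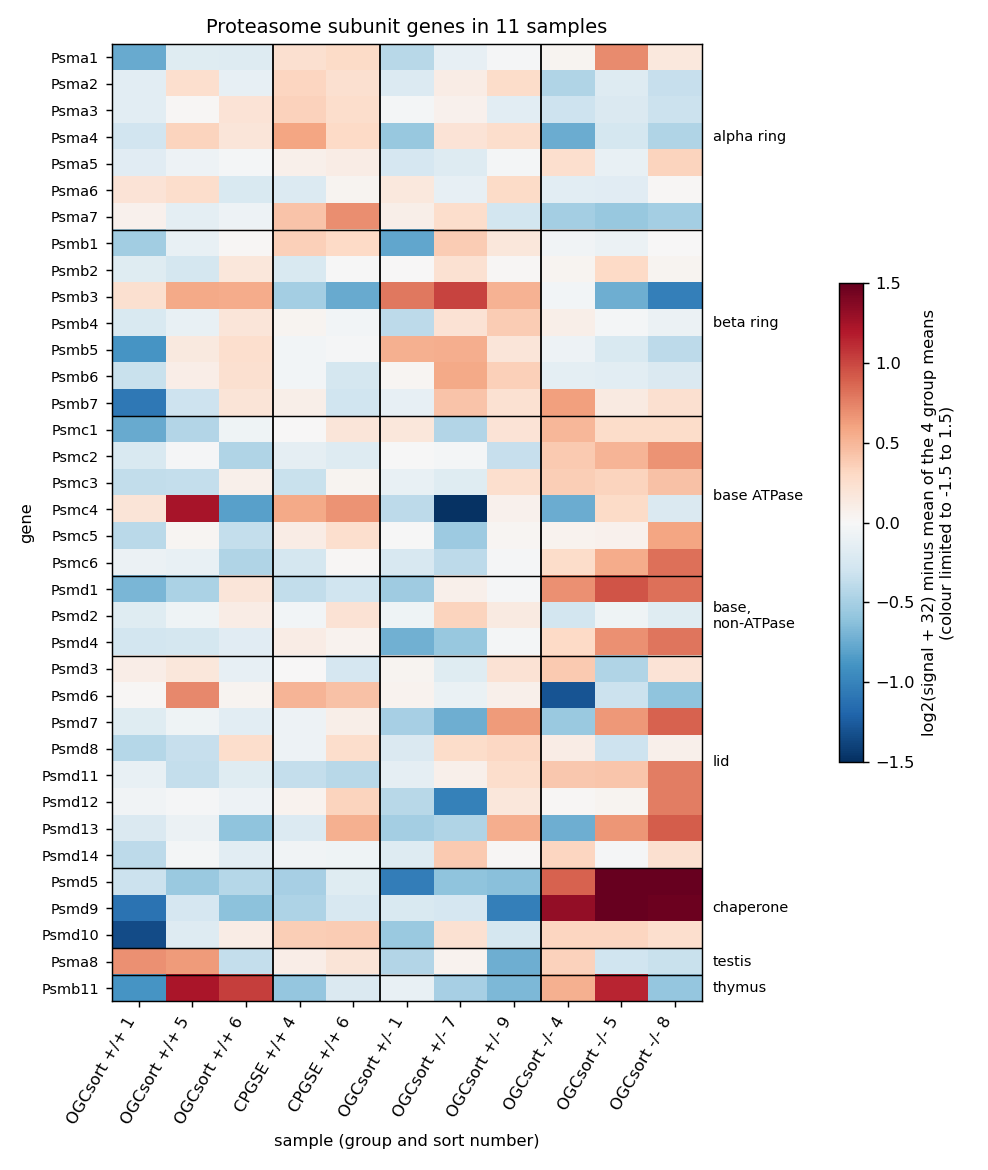
Each row is 1 of 36 genes, grouped by role, and each column is 1 of 11 samples; colour gives log2(signal + 32) minus the mean of the 4 group means, limited to 1.5 either way. Psmd5 and Psmd9 are deep red in the 3 OGCsort -/- samples, and most base ATPases are pale red there, while the alpha ring shows no such block.

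In OGCsort +/+ cells, which carry both surface proteins, 9 of 36 members (25%) differed from OGCsort -/- cells, 2 higher and 7 lower (limma, adjusted p under 0.05 over both chips). Of all 16997 genes taken with 1 probe set each, 21.9% were called, and of all 40405 probe sets 16.8%, so the share of members called is near the background. Of the 14 core genes 1 was higher and none lower, with a median log2 fold change of 0.13. Of the 17 regulatory particle genes 1 was higher and 5 lower, with a median of -0.48, and the chaperones Psmd5 and Psmd9 were lower too. The median over all probe sets was -0.10. The core median was -0.04 with hybridisation run as a block or without OGCsort +/+ sort 6, while the regulatory median stayed between -0.60 and -0.24 under every alternative run. Among all genes 12.9% were called higher and 9.03% lower.

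Within the core, Psmb3, a structural beta ring subunit, was the gene called. Its signal was 6729, 8458 and 8390 in OGCsort +/+ samples, against 5560, 3430 and 2792 in OGCsort -/- samples. The groups did not overlap, and the log2 fold change was 1.05 ± 0.27 (SE, n = 3 each, limma adjusted p = 0.0143). A second, dimmer Psmb3 probe set did not show this: its log2 fold change was -0.07, with 757, 722 and 649 in OGCsort +/+ samples, against 691, 671 and 898 in OGCsort -/- samples. The other 13 core genes lay between -0.73 (Psmb7) and 0.56 (Psma4), and none passed the test. The catalytic subunits Psmb5 (0.08 ± 0.28), Psmb6 (0.18) and Psmb7 (-0.73 ± 0.30) did not pass either.

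The base of the regulatory particle had 4 of its 9 members called, all lower. Psmd1, the large scaffold subunit of the base, had signals of 1268, 1479 and 2346 in OGCsort +/+ samples, against 3319, 3975 and 3686 in OGCsort -/- samples. All OGCsort +/+ values lay below all OGCsort -/- values, with a log2 fold change of -1.14 ± 0.26 (SE, n = 3 each, limma adjusted p = 0.00825), a 2.20-fold difference. Psmd1 is measured by 1 probe set. Psmd4, a receptor for ubiquitin chains, had 1449, 1462 and 1555 in OGCsort +/+ samples, against 2167, 2845 and 3088 in OGCsort -/- samples (log2 fold change -0.83 ± 0.24, limma adjusted p = 0.0301). Its groups did not overlap, and both of its other probe sets were lower as well, by log2 values of -0.99 and -1.61, of which 1 was called.

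The ATPases Psmc2 and Psmc6 were the other base members called. Psmc2 had signals of 8075, 9311 and 6899 in OGCsort +/+ samples, against 12460, 13438 and 15062 in OGCsort -/- samples. Its log2 fold change was -0.76 ± 0.22 (limma adjusted p = 0.0300), on a probe set of a type that can also match other transcripts, and its other 2 probe sets were lower too, 1 of them called. Psmc6 had 1559, 1531 and 1208 in OGCsort +/+ samples, against 2021, 2445 and 2958 in OGCsort -/- samples (log2 fold change -0.77 ± 0.23, limma adjusted p = 0.0355). Neither gene's groups overlapped on these probe sets. The other kept Psmc6 probe set gave -0.57, with overlapping groups, and was not called. The ATPases Psmc1, Psmc3 and Psmc5, with log2 fold changes of -0.77, -0.60 and -0.48, also had groups that did not overlap but did not pass the test, and Psmc4 had 0.43 ± 0.50. In all, signals did not overlap for 5 of 6 ATPases and for 19 of 36 members, against 40.6% of all genes.

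The lid moved both ways. Psmd11, a lid scaffold subunit, had 6325, 5365 and 6064 in OGCsort +/+ samples, against 9096, 9158 and 11687 in OGCsort -/- samples (log2 fold change -0.74 ± 0.22, limma adjusted p = 0.0297). The groups did not overlap, but of its 6 other kept probe sets 3 had the same sign and 3 the opposite one, none called. The Psmd11 probe set called is also of a type that can match other transcripts. Psmd6, another lid scaffold subunit, was higher, with 898, 1484 and 918 in OGCsort +/+ samples, against 345, 708 and 575 in OGCsort -/- samples. The groups did not overlap (log2 fold change 0.99 ± 0.30, limma adjusted p = 0.0360), while its other probe set gave 0.02. The other 6 lid members ran from -0.58 (Psmd13) to 0.00 (Psmd3), none called; Psmd14, the lid's deubiquitinase, had -0.38.

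The assembly chaperones gave the 2 largest differences among the 36 members. Psmd5 had signals of 1089, 922 and 1010 in OGCsort +/+ samples, against 2559, 4146 and 6005 in OGCsort -/- samples. Every OGCsort -/- value was more than any OGCsort +/+ value, and the log2 fold change was -1.96 ± 0.29 (95% interval -2.58 to -1.34, limma adjusted p = 0.000345), a 3.88-fold difference on the only Psmd5 probe set. Psmd9 had 146, 290 and 219 in OGCsort +/+ samples, against 926, 1269 and 1027 in OGCsort -/- samples. Its log2 fold change was -2.17 ± 0.34 (95% interval -2.91 to -1.44, limma adjusted p = 0.000572), a 4.51-fold difference. Psmd9 probe sets disagreed, however: another gave -0.32, and the remaining one gave 0.75, with 127, 149 and 147 in OGCsort +/+ samples, against 55.7, 83.6 and 75.5 in OGCsort -/- samples, so that the direction of Psmd9 depends on the probe set. Psmd10, known as gankyrin, had -0.77 ± 0.41 and did not pass (limma adjusted p = 0.234).

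**Figure D2:**
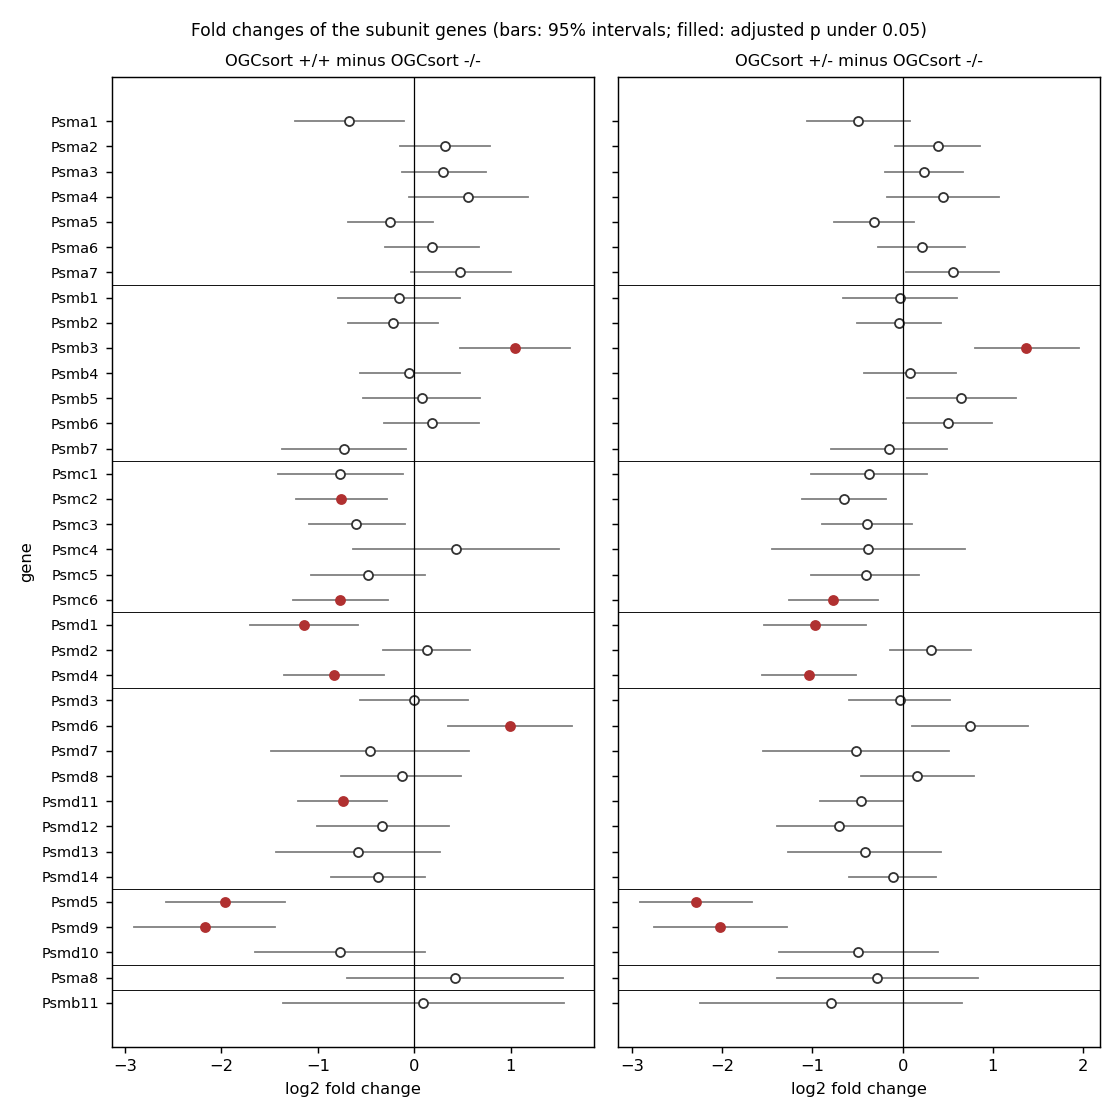
Points are log2 fold changes of the 36 genes for OGCsort +/+ minus OGCsort -/- (left) and OGCsort +/- minus OGCsort -/- (right), with 95% intervals; filled red points have an adjusted p under 0.05. Points of the base and the chaperones lie mostly left of 0, and Psmb3 is the filled core gene right of 0 in both panels.

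In OGCsort +/- cells, which carry CD45 without Sca1, 6 of 36 members (16.7%) differed from the same OGCsort -/- samples, against 18.7% of genes and 13.8% of probe sets. Psmb3 was higher (11% of genes were), and Psmc6, Psmd1, Psmd4, Psmd5 and Psmd9 were lower (7.62% of genes were). The median log2 fold change was 0.22 over core genes and -0.41 over regulatory particle genes, against -0.05 over all probe sets. Since OGCsort -/- serves both comparisons, the 2 sets of values are not independent. Signals did not overlap for 19 of 36 members, against 34.9% of genes.

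Psmb3 had signals of 9884, 11580 and 8250 in OGCsort +/- samples, all above those of OGCsort -/- (log2 fold change 1.37 ± 0.27, limma adjusted p = 0.00308), while its second probe set gave 0.22. Psmd5 had 647, 885 and 870 in OGCsort +/- samples, the lowest 3 values of that gene, and a log2 fold change of -2.29 ± 0.29 (limma adjusted p = 0.000129), a 4.88-fold difference. Psmd9 had 294, 290 and 156 (log2 fold change -2.02 ± 0.34, limma adjusted p = 0.00127), and its other probe sets gave -0.24 and 1.11. For these 3 genes no OGCsort +/- value reached the range of OGCsort -/-.

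Psmd4 had signals of 1052, 1173 and 1713 in OGCsort +/- samples, below all OGCsort -/- samples, with a log2 fold change of -1.04 ± 0.24 (limma adjusted p = 0.0102). Psmd1 had 1418, 2172 and 2030 (log2 fold change -0.97 ± 0.26, limma adjusted p = 0.0232), and Psmc6 had 1400, 1256 and 1639 (log2 fold change -0.77 ± 0.23, limma adjusted p = 0.0406). Neither gene overlapped with OGCsort -/- on these probe sets. The other kept Psmc6 probe set gave -0.38, with overlapping groups, and was not called. Psmc2 (-0.65), Psmd11 (-0.46) and Psmd6 (0.75) did not pass here. Their signals in OGCsort +/- samples were 9421, 9261 and 7460 for Psmc2, 6266, 7261 and 8267 for Psmd11, and 928, 826 and 939 for Psmd6. Of the catalytic subunits, Psmb5 had a log2 fold change of 0.65 ± 0.28 and Psmb6 of 0.50, with groups that did not overlap but without passing the test, and Psmb7 had -0.15. On chip B the same Psmb5 probe set gave 0.44. All 6 ATPases had a log2 fold change below 0, from -0.77 to -0.37, against 51.5% of all genes below 0.

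**Figure D3:**
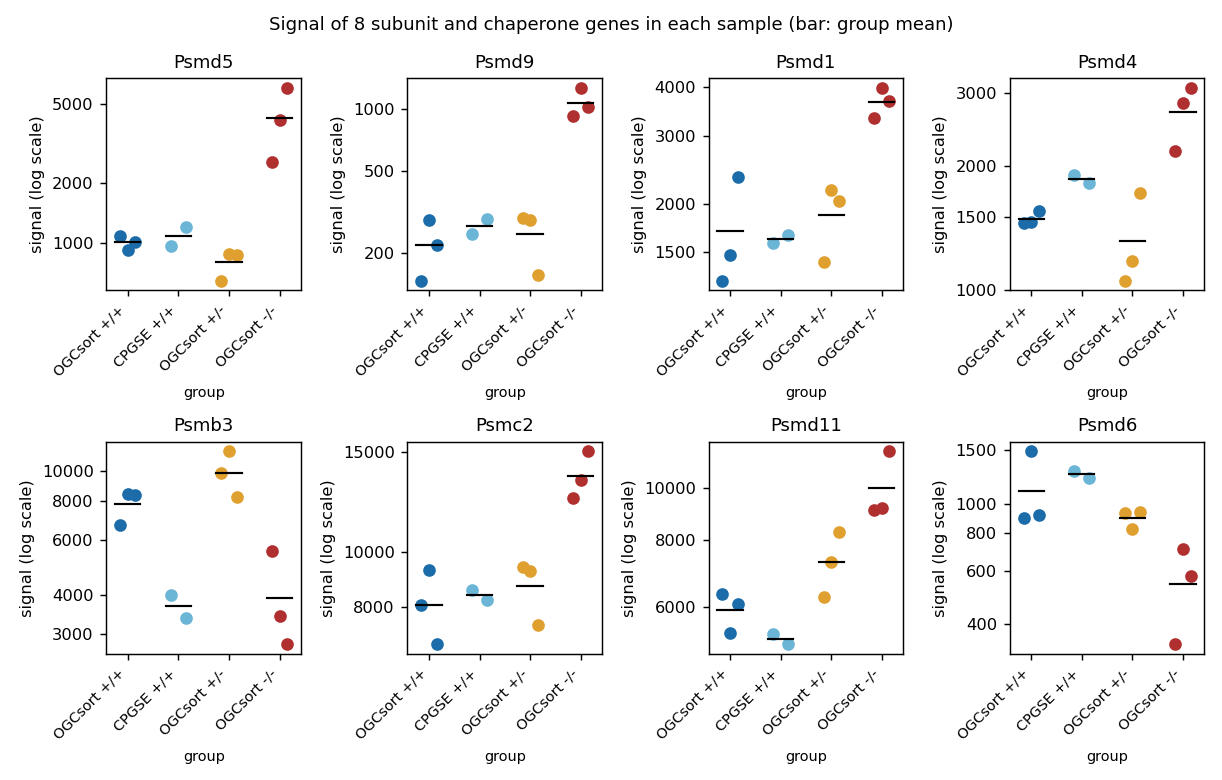
Each point is 1 sample's rescaled signal on a log axis for 8 genes, with a bar at the group mean. Psmd5, Psmd9, Psmd1, Psmd4, Psmc2 and Psmd11 are highest in the OGCsort -/- samples, Psmd6 is lowest there, and Psmb3 is low both there and in CPGSE +/+.

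OGCsort +/+ and OGCsort +/- cells, which both carry CD45 and differ in Sca1, showed no member past the threshold in limma, and none at an unadjusted p under 0.05; over all probe sets 0.109% were called, as were 0.165% of genes, and 2685 had an unadjusted p under 0.05. Psmb11, the thymus form, had the highest log2 fold change (0.88 ± 0.68, limma adjusted p = 0.924), with signals of 79.3, 450 and 389 in OGCsort +/+ samples, against 158, 114 and 97.3 in OGCsort +/- samples. Psmb5 had the lowest (-0.58 ± 0.28, limma adjusted p = 0.780), with 1704, 3501 and 3777 in OGCsort +/+ samples, against 4597, 4611 and 3597 in OGCsort +/- samples. Chip B carries the same Psmb5 probe set, which gave -0.16 there. Both genes overlapped between the groups. All 36 members lay within 1 log2 unit, with a median of -0.12; the intervals of Psmb11 (-0.57 to 2.34) and Psmb5 (-1.19 to 0.03) still include differences of that size.

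OGCsort +/+ and CPGSE +/+ cells share their surface signs. No member and no probe set passed the threshold in limma (0% called), while 3 members and 2419 probe sets had an unadjusted p under 0.05. Psmb3 again had the highest log2 fold change, 1.08 ± 0.28 (limma adjusted p = 0.458), with the OGCsort +/+ signals given above, against 4015 and 3383 in CPGSE +/+ samples. Its groups did not overlap, and CPGSE +/+ lay within the range of OGCsort -/-. Psmd10 had the lowest, -0.84 ± 0.42 (limma adjusted p = 0.847), with 96.2, 252 and 318 in OGCsort +/+ samples, against 385 and 390 in CPGSE +/+ samples. The CPGSE +/+ arrays were hybridised in a run of their own on both chips, so the set of sorts and the run cannot be told apart.

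The test for any difference among the 4 groups called 8 members (limma F test, adjusted p under 0.05), against 22.5% of genes and 17% of probe sets. They were Psma7, Psmb3, Psmd1, Psmd4, Psmd5, Psmd6, Psmd9 and Psmd11. Psma7, an alpha ring subunit, passed only this test (limma adjusted p = 0.0330). It had signals of 1007, 865 and 906 in OGCsort +/+, 1305 and 1570 in CPGSE +/+, and 1020, 1157 and 787 in OGCsort +/- samples, against 662, 634 and 662 in OGCsort -/- samples. Its OGCsort -/- values were the lowest of all samples and its CPGSE +/+ values the highest.

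The core and the regulatory particle were then set against each other within each sample. Each member's log2 value was taken relative to the mean of its 4 group means, and the median over the regulatory genes was subtracted from the median over the core genes. The difference was 0.01, 0.03 and 0.33 in OGCsort +/+, 0.13 and -0.02 in CPGSE +/+, and 0.11, 0.41 and 0.07 in OGCsort +/- samples, against -0.35, -0.45 and -0.75 in OGCsort -/- samples. The 3 OGCsort -/- samples were thus below the other 8. Group means were 0.12 ± 0.18, 0.06 ± 0.10 and 0.20 ± 0.18, against -0.51 ± 0.21 in OGCsort -/- (SD, n = 3, 2, 3 and 3). This rests more on the regulatory genes, whose medians averaged -0.15, 0.02 and -0.08, against 0.39 in OGCsort -/-, than on the core genes, which averaged -0.02, 0.08 and 0.12, against -0.13 in OGCsort -/-. The ATPases alone averaged -0.26, 0.02 and -0.14, against 0.38, and the lid alone -0.11, 0.06 and -0.04, against 0.19. Since these scores are taken over chosen members, they are given as a description, with no test. The difference is a shift in relative mRNA signal and not a count of particles.

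**Figure D4:**
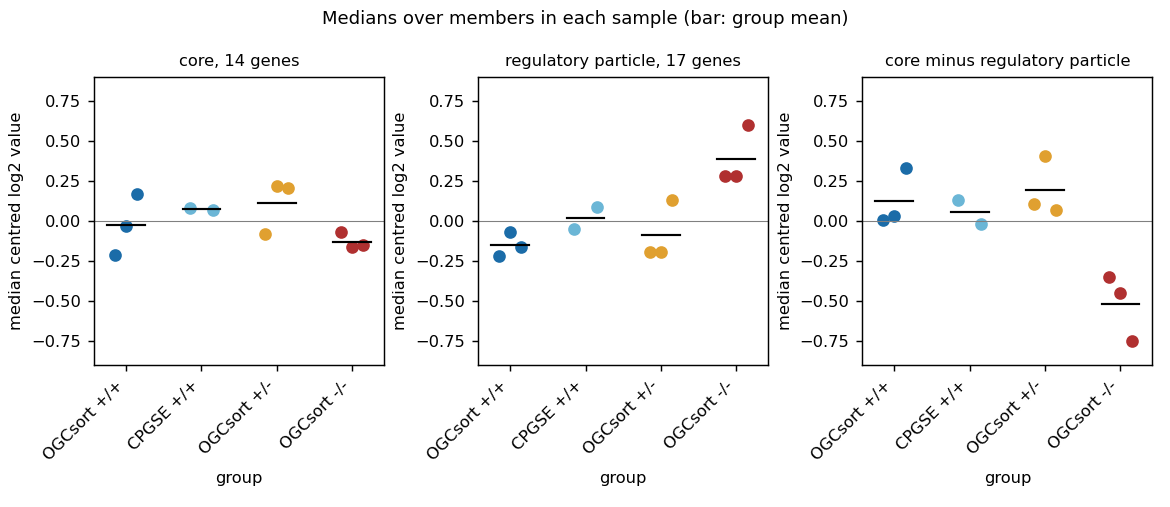
Each point is 1 sample: the median centred log2 value over 14 core genes, over 17 regulatory particle genes, and the first minus the second, with bars at group means. In the right panel the OGCsort -/- samples lie between -0.75 and -0.35, below all other samples.

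Some other genes of the pathway had larger log2 fold changes than any member. Of 35 listed genes, 25 were named alone on a probe set and measured. Each was read only on its kept probe set with the highest mean signal. Other probe sets of these genes were not compared, so their values lack the check given for members. In OGCsort +/+ against OGCsort -/- cells 10 passed, 7 higher and 3 lower, with a median log2 fold change of 0.18 over the 25, beside the 21.9% of all genes called, 12.9% higher and 9.03% lower. In OGCsort +/- against OGCsort -/- cells 10 passed, again 7 higher and 3 lower, with a median of 0.28, beside 18.7% of all genes called. In the 2 remaining pairwise comparisons none of the 25 passed in limma. The test over the 4 groups called 11 of the 25, beside 22.5% of all genes. Uba6, listed for ubiquitin activation, passed only that test (limma F test, adjusted p = 0.0298). Against OGCsort -/- its log2 fold change was 0.74 in OGCsort +/+ and 0.87 in OGCsort +/- cells.

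The immune subunits Psmb8, Psmb9 and Psmb10 replace the catalytic subunits Psmb5, Psmb6 and Psmb7 in immune cells. All 3 were higher in OGCsort +/+ than in OGCsort -/- cells, by log2 values of 4.51 ± 0.61, 2.44 ± 0.41 and 3.27 ± 0.42 (limma adjusted p = 0.000174, 0.000993 and 0.000107). Their constitutive counterparts had log2 fold changes between -0.73 and 0.18, as given above. Psmb8 had 2872, 4130 and 3561 in OGCsort +/+ samples, against 594, 74.8 and 22.3 in OGCsort -/- samples.

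Other proteins that bind the ends of the core split in direction. Psme1, a subunit of the interferon-induced activator, was higher in OGCsort +/+ cells (log2 fold change 1.44 ± 0.23, limma adjusted p = 0.000596), with 2364, 2675 and 2865, against 997, 936 and 920 in OGCsort -/- samples. Psme3, which forms the nuclear activator, was lower (-2.42 ± 0.28, limma adjusted p = 4.45e-05), with 247, 251 and 283 in OGCsort +/+ samples, against 1280, 1659 and 1702 in OGCsort -/- samples. Psmf1, which encodes a protein that inhibits the isolated core, was lower as well (-2.55 ± 0.42, limma adjusted p = 0.000753), with 353, 372 and 576, against 2200, 2445 and 3399 in OGCsort -/- samples. None of these 3 genes overlapped between the groups.

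Usp14, a deubiquitinase that docks on the base, was lower in OGCsort +/+ cells (-1.11 ± 0.26, limma adjusted p = 0.00907), in the same direction as the base subunits called. Its probe set is of a type that can also match other transcripts. Ecpas, which binds proteasomes, and Ubqln2, a shuttle factor that delivers substrates, were higher (1.29 ± 0.34 and 2.02 ± 0.34, limma adjusted p = 0.0150 and 0.00100). The core assembly factor Psmg4 was higher (1.05 ± 0.31, limma adjusted p = 0.0322), while Pomp and Psmg1, Psmg2 and Psmg3 were not called. Sem1, a small lid subunit, passed in OGCsort +/- against OGCsort -/- cells (1.06 ± 0.23, limma adjusted p = 0.00566) but not in OGCsort +/+ against OGCsort -/- cells (0.38 ± 0.23, limma adjusted p = 0.291), and it passed the test over the 4 groups (limma adjusted p = 0.0134). Nfe2l1, Nfe2l2 and Ngly1, which control subunit transcription or activate Nfe2l1, did not pass; Nfe2l1 had 0.03 ± 0.28 in OGCsort +/+ and 0.08 ± 0.28 in OGCsort +/- against OGCsort -/- cells.

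**Figure D5:**
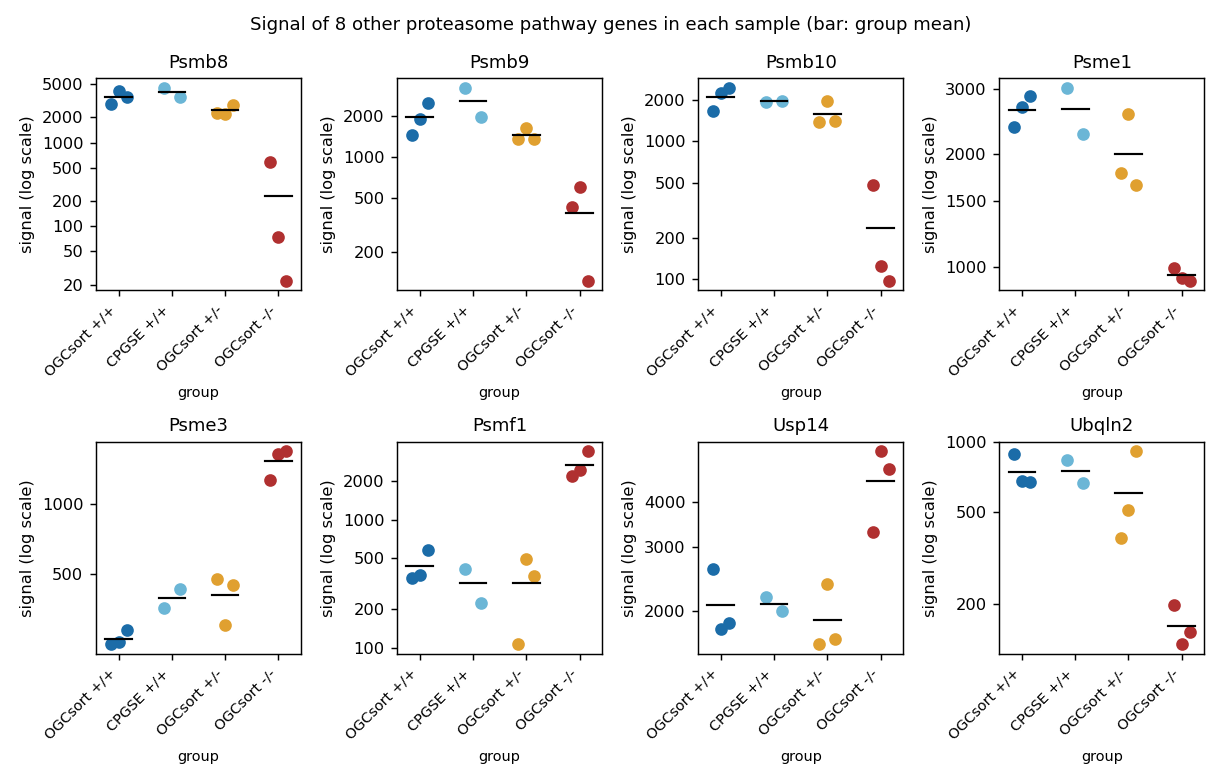
Each point is 1 sample's rescaled signal on a log axis for 8 other pathway genes, with a bar at the group mean. Psmb8, Psmb9, Psmb10, Psme1 and Ubqln2 are lowest in the OGCsort -/- samples, and Psme3, Psmf1 and Usp14 are highest there.

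Hybridisation runs were partly tied to the groups. On chip A all OGCsort -/- samples were run with 2 OGCsort +/+ samples, and all OGCsort +/- samples with the remaining OGCsort +/+ sample, so OGCsort +/- and OGCsort -/- share no run. With the run as a block, Psmd1, Psmd5 and Psmd9 kept their calls in OGCsort +/+ against OGCsort -/- cells (log2 fold changes -1.39, -1.96 and -2.19, limma adjusted p = 0.00461, 0.00303 and 0.00425), and within the shared run alone they had -1.39, -1.96 and -2.19 (limma adjusted p = 0.00329, 0.00554 and 0.00368). On chip A both fits take this difference from the same arrays of the shared run. Their log2 fold changes had to be equal, so the fits are not separate checks. The beta ring subunit Psmb7, not called above, passed in both of these fits, lower in OGCsort +/+ (-1.02, limma adjusted p = 0.0446 and 0.0391), while Psmb3 had 1.00 in each and missed the threshold (limma adjusted p = 0.0596 and 0.0560). In OGCsort +/- against OGCsort -/- cells no member kept its call with the block, when 1.25% of probe sets were called; Psmd5 then had -2.30 ± 0.54 (limma adjusted p = 0.0651).

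Single samples also decided several calls. In OGCsort +/+ against OGCsort -/- cells, Psmd1, Psmd5 and Psmd9 passed whichever of the 6 samples was left out, while the count of members fell to 5 without OGCsort +/+ sort 1, 4 without OGCsort +/+ sort 5, OGCsort +/+ sort 6 or OGCsort -/- sort 5, and 3 without OGCsort -/- sort 8. Over the same omissions 11.5% to 13.1% of probe sets were called in these 5 fits. Psmc6, Psmd4 and Psmd11 each kept their call in only 1 of these 6 omissions, and Psmb3, Psmc2 and Psmd6 in 2. In OGCsort +/- against OGCsort -/- cells, Psmb3, Psmd4, Psmd5 and Psmd9 passed whichever sample was left out. There Psmc6 kept its call in 1 of 6 omissions and Psmd1 in 3.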

How the data were processed

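RNA of 11 sorted samples was hybridised to the Affymetrix chips MOE430A and MOE430B. The deposited intensities are MAS5 signals on a linear scale, per the submitters' processing notes, and every deposited array has a trimmed mean near 1500. Signals were rescaled to a trimmed mean of 500 (2% off each end) and taken as log2(signal + 32). Fold changes are on that scale and understate changes of dim probe sets. Control probe sets were left out, and a probe set was kept if its signal exceeded 100 on at least 2 arrays (40405 of 45037). For probe sets that both chips carry, the MOE430A value was used. Groups were compared with limma 3.58.1 in R 4.3.3 (lmFit, eBayes with trend), each chip alone, with Benjamini-Hochberg adjustment over both chips. The 3 OGCsort comparisons used 9 samples, the others 11. The method was tested on simulated data with independent noise, without hybridisation runs or shared sort numbers. That test does not speak to either. Array number limits precision. A hybridisation run holds arrays whose recorded hybridisation time lay within 60 minutes of the one before. Members, lists and rules were chosen with earlier results of these data known. Genes described with sample values were those called in any comparison, or the highest and lowest where none was. Alternatives were other pseudocounts, filters, normalization, variance models, blocks, probe set choices and leaving out samples.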

Additional observations from a re-analysis of the deposited data

How the results depend on the processing

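Calls are limited by 2 or 3 samples a group, and a member that was not called may still differ. The median log2 fold change over all members moved by less than 0.28 under every alternative run, in all 4 pairwise comparisons. That limit is the median spread of single members between replicates. It exceeds in size the medians of OGCsort +/+ against OGCsort -/- (-0.24), OGCsort +/- (-0.12) and CPGSE +/+ (-0.16). Staying within it therefore does not show that these medians held. With 1 sample left out, they ran from -0.33 to -0.17, -0.18 to 0.0 and -0.23 to -0.10. The core-minus-regulatory value of OGCsort -/- stayed between -0.59 and -0.33. In OGCsort +/+ against OGCsort -/-, 9 members were called; this was 3 with no trend, 4 with hybridisation run (and, on chip B, station) blocked (13.8% and 9.81% of probe sets called, against 16.8%), 5 within the shared chip A run (added after the run records were seen), 1 of 19 with the second probe set, and 3 to 9 with 1 sample left out. In OGCsort +/- against OGCsort -/-, 6 became 0 with the run block (1.25% of probe sets, against 13.8%) and 1 of 19 with the second probe set; leaving out samples gave 4 to 6. Over the 4 groups, 8 became 3 with no trend, 4 with the run block (13.6% and 7.06% of probe sets, against 17%), 5 with plain probe sets preferred and 1 of 19 with the second probe set; leaving out samples gave 4 to 9. OGCsort +/+ against CPGSE +/+ gave 1 with array weights and 0 with any sample left out. In OGCsort +/+ against OGCsort -/-, Psmb3 turned to -0.03 with CPGSE in place of OGCsort +/+ and to -0.07 with either other probe set rule, and Psmd11 to 0.15 with either rule; the cause was not tested. The looser motif TGANNNNGC was in 58.6% of members, against 45% of all genes. TGACTCAGC was in 0 members, against 0.503% of all genes. TGACTTAGC was in 3.45% of members (1 gene, Psmc6), against 0.207%. No paired analysis was possible because no 2 groups share more than 1 sort number. Sort number as a random block (replicate block) gave 10, 6, 0, 0 and 10 members for the 5 tests. In the tests with CPGSE, its sorts 4 and 6 shared blocks with the OGCsort sorts of the same numbers. The labels do not say that these are the same sorts. Probe set choices leave the fit unchanged, so for them the shares of all probe sets called stay at 16.8%, 13.8% and 17%. For the shared chip A run, array weights, the sort number block and omitted samples, no such share is given here. Those counts of members therefore cannot be set beside a background.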
